A study of Mus musculus with 8 samples.

Results

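The respiratory chain genes followed here are the 102 rows, of 31053 genes in the deposited tables, whose symbols begin with Ndufa, Ndufb, Ndufc, Ndufs, Ndufv, Uqcr, Cox4 to Cox8, Atp5 or mt-, with rows marked -ps left out. No measured value entered that choice. The 102 comprise 13 genes of the mitochondrial genome and 89 nuclear genes, of which 36 belong to complex I, 8 are complex I assembly factors, 8 belong to complex III, 20 to complex IV and 17 to complex V. Ndufa4 and Ndufa4l2, named after complex I, were counted with complex IV, where the Ndufa4 protein is now placed.

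Single-cell RNA-seq libraries had been made from the cortical plate of perfused mice at 8 weeks of age. One experiment set Lama4-/- mice, which lack the laminin alpha chain gene Lama4 in every cell, against their own WT mice. The other set Tek-cre:Lama5-/- mice, in which Cre driven by Tek removes Lama5 from the endothelial lineage and from blood cells of the same origin, against their own WT mice. Brains of 3 mice were pooled per group, so the libraries of a group share a pool, and a p-value measures the spread between libraries rather than between mice. Of 8 deposited samples, the 2 of the Lama4-/- group held identical matrices and were counted as 1 library, so 7 distinct libraries remained. In what follows, Lama4 KO and Lama5 KO stand for those genotypes.

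The respiratory chain passes electrons from NADH through complexes I, III and IV to oxygen, pumps protons across the inner mitochondrial membrane, and complex V uses the gradient to make ATP. Its core subunits are encoded in mitochondrial DNA and its many accessory subunits in the nucleus, so each complex other than complex II draws on both genomes. Brain endothelial cells, pericytes, smooth muscle cells and glia differ in how much they rely on this chain, and several complex IV subunits exist as alternative isoforms with their own tissue patterns.

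Promoter windows of 250 bases before the start site were found in the RefSeq table (GRCm38.p6) for 71 member symbols, in 76 windows. These were searched on both strands for the NRF1 motif, allowing either pyrimidine near its centre, and for the GABPA core CCGGAAG, because both factors are known for binding promoters of respiratory chain genes. The NRF1 letters were in 7 of the 76 member windows (9.21%) and in 602 of all 32851 windows (1.83%), and the GABPA core was in 13 member windows (17.1%) and in 2269 of all windows (6.91%). The motifs do not overlap each other, and a match is a description of the letters only. The 4 windows below are shown because the results turn on these genes: Uqcrh and Ndufb2 were higher in endothelial and smooth muscle cells of the Lama5 KO, Cox6a1 was higher in its microglia and holds both motifs, and Ndufa4 was low in pericytes. All are written 5′ to 3′ along the gene's strand, and capitals mark motif matches. Start sites are those of RefSeq, which can differ from the GENCODE M21 gene bounds given elsewhere: the windows of Ndufa4 and Uqcrh reach into the gene so bounded.
Uqcrh (chr4:116075071-116075320, minus strand): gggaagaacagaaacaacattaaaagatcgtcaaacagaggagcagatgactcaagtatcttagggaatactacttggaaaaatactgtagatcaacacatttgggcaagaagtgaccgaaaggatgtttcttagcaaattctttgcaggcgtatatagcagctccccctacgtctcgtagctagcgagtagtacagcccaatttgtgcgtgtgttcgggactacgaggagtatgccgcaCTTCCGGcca
Ndufb2 (chr6:39592315-39592564, plus strand): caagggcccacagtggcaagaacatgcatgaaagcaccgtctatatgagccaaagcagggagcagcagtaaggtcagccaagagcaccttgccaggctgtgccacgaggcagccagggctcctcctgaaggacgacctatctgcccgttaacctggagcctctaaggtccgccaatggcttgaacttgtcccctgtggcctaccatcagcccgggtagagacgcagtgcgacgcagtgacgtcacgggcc
Cox6a1 (chr5:115348959-115349208, minus strand): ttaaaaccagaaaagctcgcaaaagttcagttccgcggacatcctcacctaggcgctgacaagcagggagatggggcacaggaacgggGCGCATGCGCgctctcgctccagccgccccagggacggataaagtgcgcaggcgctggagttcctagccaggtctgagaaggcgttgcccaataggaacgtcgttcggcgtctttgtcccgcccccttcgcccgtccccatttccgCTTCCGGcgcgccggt
Ndufa4 (chr6:11907451-11907700, minus strand): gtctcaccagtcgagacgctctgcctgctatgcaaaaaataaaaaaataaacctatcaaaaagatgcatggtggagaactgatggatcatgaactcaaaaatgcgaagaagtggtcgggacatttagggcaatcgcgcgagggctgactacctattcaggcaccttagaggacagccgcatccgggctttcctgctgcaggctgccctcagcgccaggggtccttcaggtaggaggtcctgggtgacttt
The Uqcrh window holds 1 GABPA core, on the reverse strand and starting 10 bases before the start site. The Cox6a1 window holds an NRF1 match starting 162 bases before the start site and a GABPA core on the reverse strand at 16 bases, while the Ndufb2 and Ndufa4 windows hold neither set of letters.

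Each library held between 35479306 and 48314458 UMIs, where a UMI marks 1 captured RNA molecule. After filtering, 47239 cells were kept, with a median depth of 2904 to 6543 UMIs per cell and at most 20 barcodes shared by any pair of libraries. The cells formed 32 clusters, which were named from marker genes, and the endothelial-like class detected 10 of 10 endothelial markers in every group. In endothelial-like cells Lama5 read 41.4 and 41.5 CPM (counts scaled to a common library total) in the WT libraries and 22.7 and 25.1 CPM in the Lama5 KO, so transcript remained in the KO. Lama4 read 45.8 and 45.4 CPM in the WT libraries of its own experiment and 0.0589 CPM, 1 UMI, in the Lama4 KO. The Lama4 KO library carried choroid plexus transcripts in every class: in its endothelial-like cells the 8 choroid plexus markers summed to 1038 CPM, against 101 and 156 CPM in its WT libraries.

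Smooth muscle-like cells had the largest share of nuclear respiratory chain transcripts among the 9 classes compared, and microglia-like cells the smallest. Nuclear members made up 2.34% to 2.81% of UMIs in smooth muscle-like cells over 7 libraries, 1.65% to 1.95% in pericyte-like cells, 1.42% to 1.74% in endothelial-like cells and 0.751% to 1.19% in microglia-like cells. Transcripts of the mitochondrial genome took a larger share than the nuclear members in every class: they made up 6.94% to 8.54% of UMIs in smooth muscle-like cells, 6.71% to 8.37% in oligodendrocyte-like cells and 4.68% to 9.16% in astrocyte-like cells. Endothelial-like cells, at 3.76% to 4.68%, and microglia-like cells, at 1.75% to 4.58%, were at the low end. These are differences between clusters of the same cells and carry no test. Choroid plexus-like cells, with 115 cells in the Lama4 KO library and at most 27 in any other, reached 11.1% and 4.57% in that library.

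The mitochondrial share depended on the experiment as well as on the class. Microglia-like cells held 4.37% to 4.58% in the Lama4 experiment and 1.75% to 2.19% in the Lama5 experiment, and pericyte-like cells held 6.43% to 6.62% and 4.10% to 4.26%. In both classes the libraries of the experiments did not overlap. The cell filter, which drops cells above 15% mitochondrial UMIs, also acted unequally: it removed 40.7% to 41.8% of astrocyte-like cells in the Lama4 experiment and 15.2% to 20.1% in the Lama5 experiment, but at most 2.79% of endothelial-like cells in any library. In the Lama4 experiment the filter also removed, among others, 34.7% to 36.5% of oligodendrocyte-like, 17.9% to 22.7% of smooth muscle-like and 9.50% to 13.5% of pericyte-like cells. In the Lama5 experiment it removed 5.44% to 10.9%, 3.46% to 5.45% and 0% to 1.17% of them. Shares in these classes and in astrocyte-like cells are therefore bounded by the filter.

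**Figure D1:**
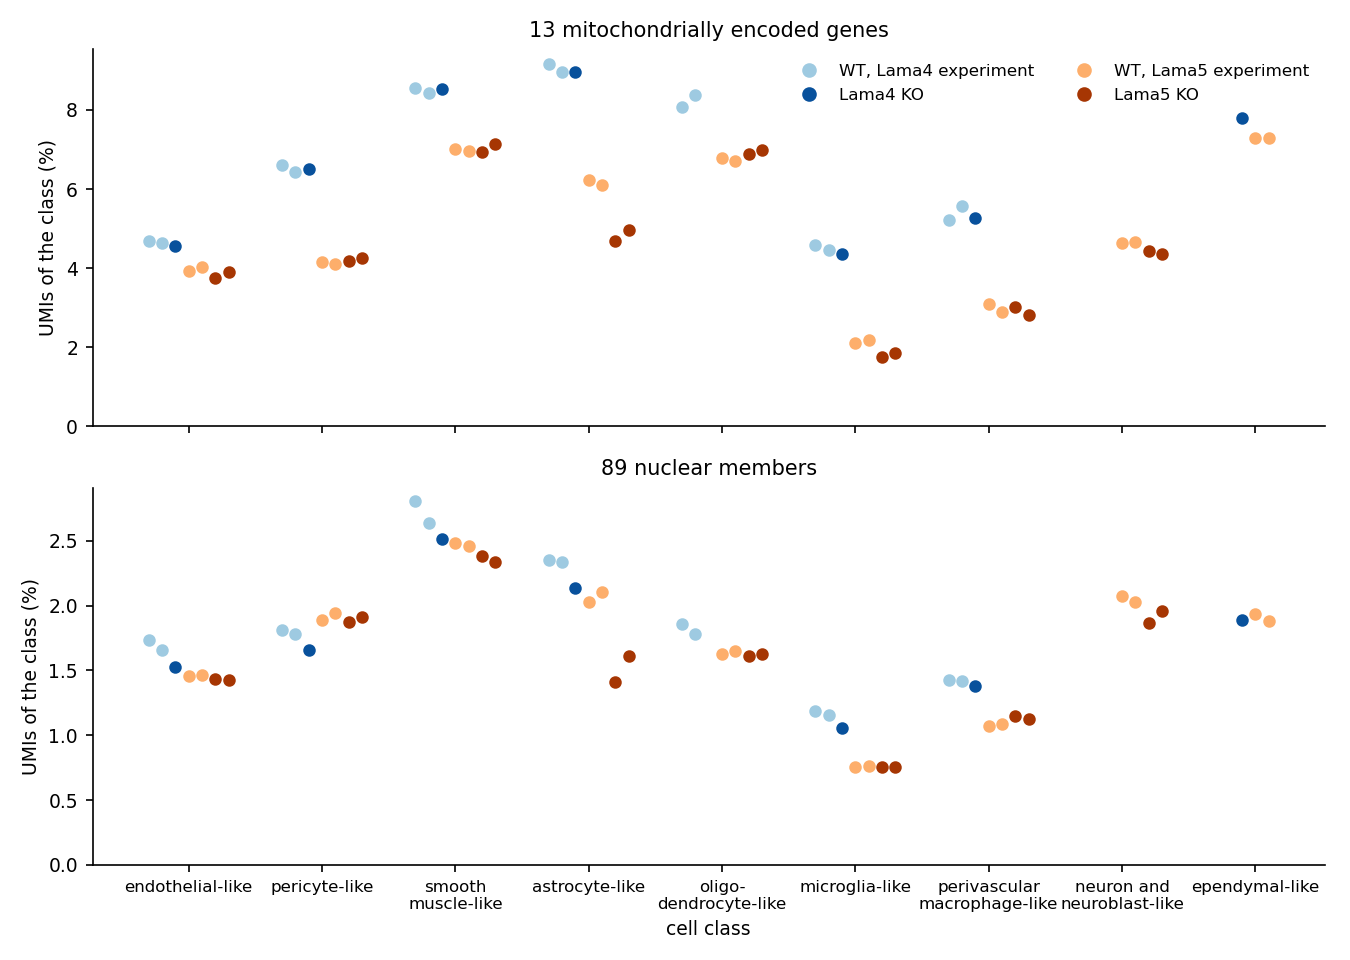
Share of UMIs (percent, vertical axes) from the 13 mitochondrially encoded genes (top) and the 89 nuclear members (bottom) in 9 cell classes, with 1 point per library of at least 50 cells, coloured by group. Nuclear shares are highest in smooth muscle-like cells (2.34% to 2.81%) and lowest in microglia-like cells (0.751% to 1.19%).

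Of the 99 members compared over 9 classes by their median level, 34 were highest in smooth muscle-like cells, 19 in ependymal-like cells, 17 in astrocyte-like cells and 13 in neuron-like cells. Endothelial-like cells led for only 3, Atp5j and Ndufa7, subunits of complexes V and I, and Ndufaf7, a methyltransferase that helps to assemble complex I. Pericyte-like cells led for 4, among them Cox4i2 and Ndufa4l2. Microglia-like cells led for 1, Cox6a2, which they held at only 1.58 to 5.47 CPM. These names follow from the levels and were not chosen by rule. The medians rest on different libraries, 3 for ependymal-like cells, 4 of the Lama5 experiment for neuron-like cells, 6 for oligodendrocyte-like cells and 7 for the others, and levels differed between the experiments. Levels here are CPM of all UMIs of the class in that library, unscaled and from 3-prime tags, so no length term enters and a gene is compared with itself across classes rather than with other genes.

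The alternative isoforms showed the clearest class pattern, and it lay in complex IV of pericyte-like cells. Cox4i2 (chr2:152754173-152765037, plus strand, 4 exons) encodes the isoform of subunit IV that is known from lung and from oxygen-sensing cells. It read 448 to 611 CPM in pericyte-like cells over 7 libraries, with a median of 474 CPM. In smooth muscle-like cells it read 125 to 174 CPM, and in endothelial-like cells 0.996 to 1.44 CPM. The 3 ranges did not overlap, and astrocyte-like cells, at 1.82 to 16.7 CPM, lay between the last of these. The widely expressed form, Cox4i1 (chr8:120668222-120674207, plus strand, 5 exons), had no such pattern, with 557 to 624 CPM in pericyte-like, 601 to 668 CPM in endothelial-like and 874 to 1033 CPM in smooth muscle-like cells.

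Ndufa4l2 followed the same order of classes, with its counterpart reversed in pericytes. Ndufa4l2 (chr10:127514967-127517154, plus strand), a paralog of Ndufa4 that is known as a hypoxia-inducible gene, read 1302 to 1638 CPM in pericyte-like cells, with a median of 1509 CPM. It read 439 to 721 CPM in smooth muscle-like cells and 1.15 to 2.35 CPM in endothelial-like cells. Ndufa4 (chr6:11900292-11907497, minus strand), whose promoter is printed above, read only 16.7 to 59.4 CPM in pericyte-like cells. In the same 7 libraries it read 272 to 441 CPM in smooth muscle-like and 380 to 501 CPM in endothelial-like cells, and in neuron-like cells, with 4 libraries, 557 to 697 CPM. Among pericyte-like, smooth muscle-like and endothelial-like cells, pericyte-like cells held the highest Ndufa4l2 and the lowest Ndufa4 in all 7 libraries. Neither Cox4i2 nor Ndufa4l2 was called in pericyte-like cells of the Lama5 KO, with edgeR adjusted p = 0.664 and 0.621.

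**Figure D2:**
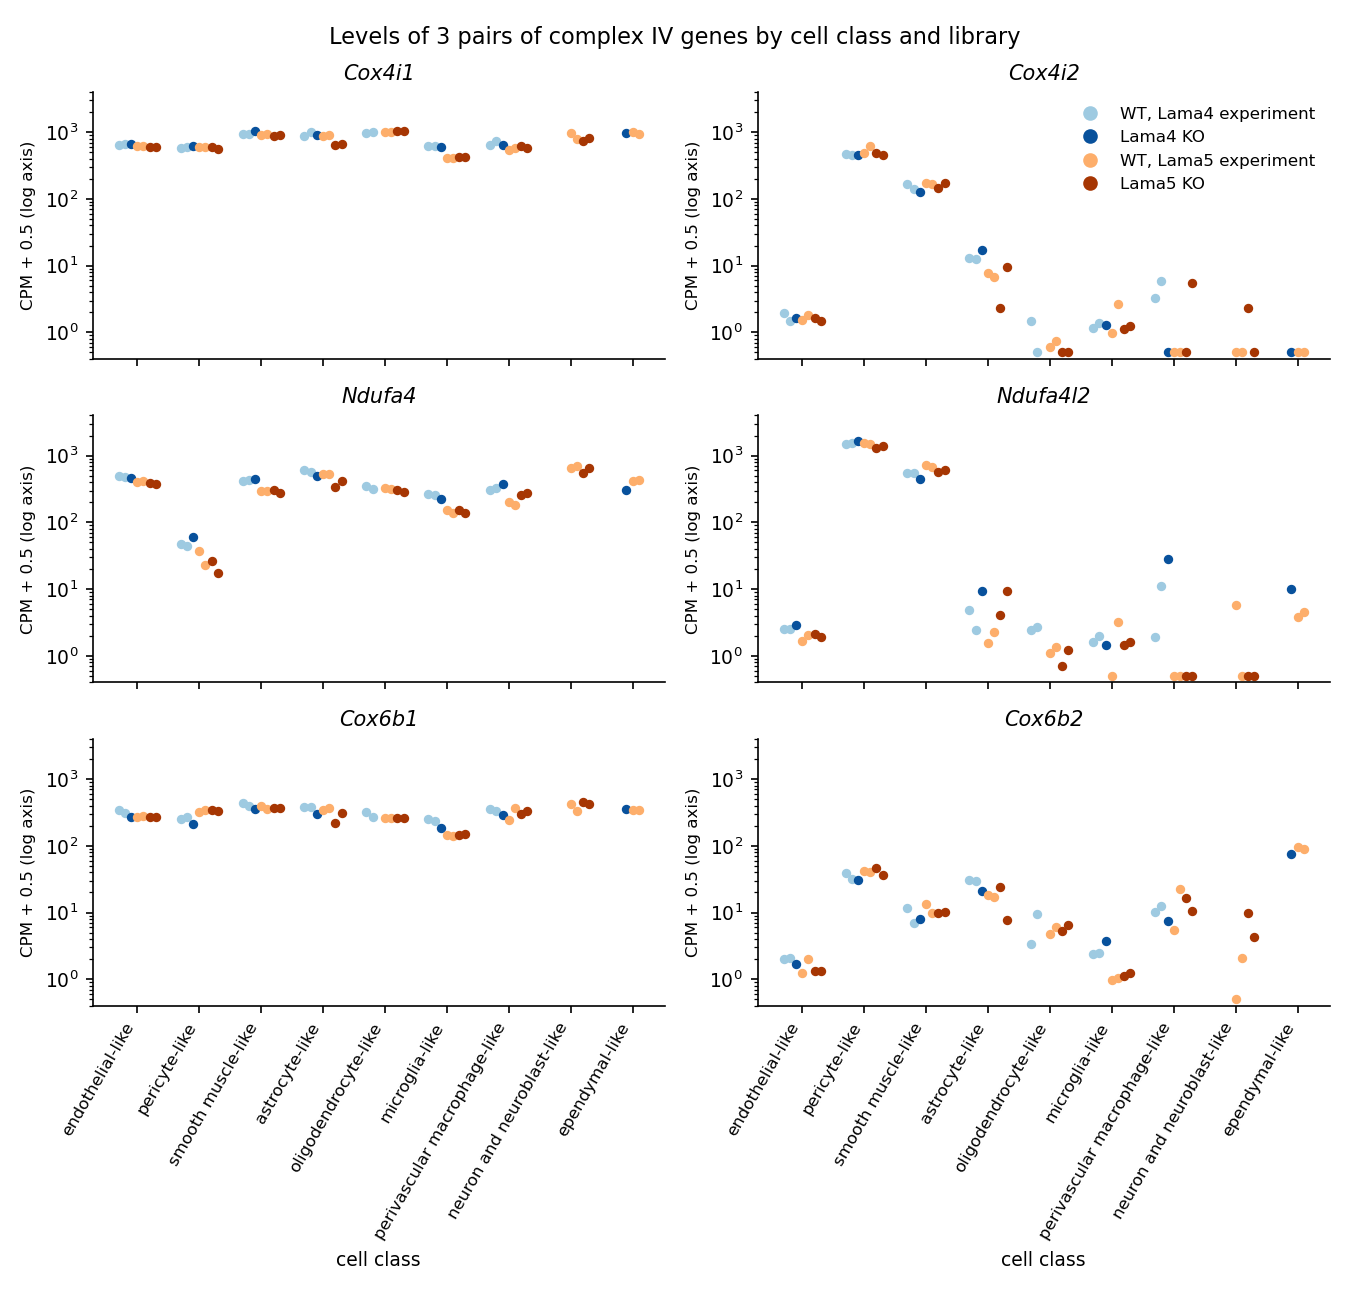
Level of 3 isoform pairs (CPM + 0.5, log axis) in each cell class, with 1 point per library, coloured by group. Cox4i2 and Ndufa4l2 stand at 448 to 611 and 1302 to 1638 CPM in pericyte-like cells and at no more than 2.35 CPM in endothelial-like cells, while Ndufa4 is lowest in pericyte-like cells.

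Other isoforms marked other classes or were barely present. Cox6b2, known as the testis form of subunit VIb, read 75.5 to 96.2 CPM in ependymal-like cells, 29.7 to 45.8 CPM in pericyte-like cells and 0.734 to 1.60 CPM in endothelial-like cells. Cox8a, the widely expressed subunit VIII, was highest in smooth muscle-like cells, at 1376 to 1811 CPM, against 375 to 462 CPM in endothelial-like cells. Cox7a2l, a subunit VIIa relative that takes part in supercomplexes, was as high in endothelial-like cells (382 to 414 CPM) as in smooth muscle-like cells (356 to 405 CPM), and these ranges overlapped. It was lowest in astrocyte-like cells, at 66.4 to 138 CPM.

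The striated muscle forms were near the detection floor in vessel cells. Cox7a1 read 1.97 to 4.53 CPM in endothelial-like and 4.38 to 9.76 CPM in smooth muscle-like cells. Cox8b was at 0 in every library in smooth muscle-like and pericyte-like cells and at 73.5 CPM in the choroid plexus-like cells of the Lama4 KO. Over all libraries Cox8c had 0 UMIs, 1 of the 2 identifiers of Atp5o had 1, Cox7b2 had 62 and Cox6a2 had 236. Atp5g1, a gene for the c subunit of complex V, read 133 to 147 CPM in endothelial-like cells and 2025 CPM in those choroid plexus-like cells. Atp5g1, Atp5g2 and Atp5g3 encode the same mature protein, and reads could be split between these near copies, so their separate levels are uncertain.

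Among endothelial-like cells, loss of Lama5 came with small changes: respiratory chain transcripts that were called moved mostly upward. edgeR's quasi-likelihood test called 24 of the 97 members tested at an adjusted p under 0.05 (19.1% of all 13178 genes tested were called), 20 of them higher (10.6% of all genes) and 4 lower (8.46%). The median log2 fold change was 0.04 over the members and 0.00 over all genes tested. The rises were spread over the complexes: 5 of 36 in complex I, 3 of 8 in complex III, 4 of 16 in complex IV, 4 of 16 in complex V and 4 of 13 mitochondrially encoded. The 5 members not tested for low counts were Cox6a2, Cox7b2, Cox8b, Cox8c and the second Atp5o identifier. Values below are CPM scaled by TMM, edgeR's correction for composition.

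The largest rise among called nuclear members was that of Uqcrh, the hinge subunit of complex III whose promoter is printed above, at chr4:116066965-116075071. Uqcrh read 431 and 437 CPM in the WT libraries and 487 and 480 CPM in the Lama5 KO, which is 0.15 higher on the log2 scale (SE 0.022, edgeR adjusted p = 2.11e-06). The groups did not overlap, and the gene stayed called under every alternative setting tried. Its neighbour in complex III, Uqcrb, read 342 and 339 CPM in WT and 368 and 364 CPM in the KO (log2 0.11, edgeR adjusted p = 0.000972). In complex IV, Cox7a2l read 373 and 372 CPM in WT and 401 and 410 CPM in the KO (log2 0.12, edgeR adjusted p = 0.000126).

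Smaller rises in complexes I and V were less steady. Ndufb2, an accessory subunit of complex I, read 78.5 and 74.0 CPM in WT and 85.3 and 82.6 CPM in the KO (log2 0.14, edgeR adjusted p = 0.0137). The call was lost without WT replicate 2 or KO replicate 1 (edgeR adjusted p = 0.218 and 0.130). Atp5g3 read 129 and 132 CPM in WT and 147 and 136 CPM in the KO (log2 0.11, edgeR adjusted p = 0.0156), and the call was lost without either WT library or without KO replicate 1, with adjusted p up to 0.444. Ndufa12, a complex I accessory subunit, rose by log2 0.11 (edgeR adjusted p = 0.0379), and lost the call without WT replicate 1 or either KO library, with adjusted p up to 0.381.

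The 3 nuclear members that fell all serve complex I. Ndufaf7 (chr17:78937136-78948052, 10 exons), the assembly methyltransferase, read 48.8 and 48.1 CPM in WT and 38.2 and 40.7 CPM in the KO. The log2 change was -0.30 (SE 0.051, with edgeR adjusted p = 5.86e-05), the largest of the called changes, and it stayed called under every setting tried. Ndufc2 read 199 and 201 CPM in WT and 185 and 188 CPM in the KO (log2 -0.10, edgeR adjusted p = 0.00681). Ndufa10 read 58.9 and 60.4 CPM in WT and 54.6 and 54.1 CPM in the KO (log2 -0.13, edgeR adjusted p = 0.0322). The call of Ndufc2 was lost without WT replicate 2 or KO replicate 1 (edgeR adjusted p = 0.0744 and 0.0803), and that of Ndufa10 without any 1 of the 4 libraries (edgeR adjusted p up to 0.185).

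Among the 13 mitochondrially encoded genes, 4 were higher, 1 was lower and 8 were not called in endothelial-like cells. mt-Cytb, the cytochrome b of complex III, read 3322 and 3435 CPM in WT and 3566 and 3593 CPM in the KO (log2 0.08, edgeR adjusted p = 0.000883). mt-Nd5, a proton-pumping subunit of complex I, read 435 and 442 CPM in WT and 466 and 489 CPM in the KO (log2 0.12, edgeR adjusted p = 0.000192). mt-Atp8 read 129 and 125 CPM in WT and 138 and 158 CPM in the KO (log2 0.22, edgeR adjusted p = 0.000129). All KO values exceeded all WT values for these 3 genes. mt-Nd4l (log2 0.12, edgeR adjusted p = 0.00281) lost its call without WT replicate 2 or KO replicate 2 (edgeR adjusted p = 0.141 and 0.144). mt-Nd6, the only member encoded on the light strand, read 54.4 and 47.7 CPM in WT and 44.7 and 45.5 CPM in the KO (log2 -0.18, edgeR adjusted p = 0.0179). It was not called without WT replicate 1 or KO replicate 1 (edgeR adjusted p = 0.422 and 0.0622). The most abundant genes did not move past the test, for example mt-Atp6 (9080 and 9296 CPM in WT, 9132 and 9712 CPM in the KO, edgeR adjusted p = 0.233) and mt-Co2 (6196 and 6359, then 6129 and 6423 CPM, edgeR adjusted p = 0.990). Annotated gene bodies overlap by 43 bases between mt-Atp8 and mt-Atp6, by 7 bases between mt-Nd4l and mt-Nd4 and, on opposite strands, by 14 bases between mt-Nd5 and mt-Nd6. Whether the counting used strand is not given in the sources used here, so reads at those overlaps are uncertain.

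**Figure D3:**
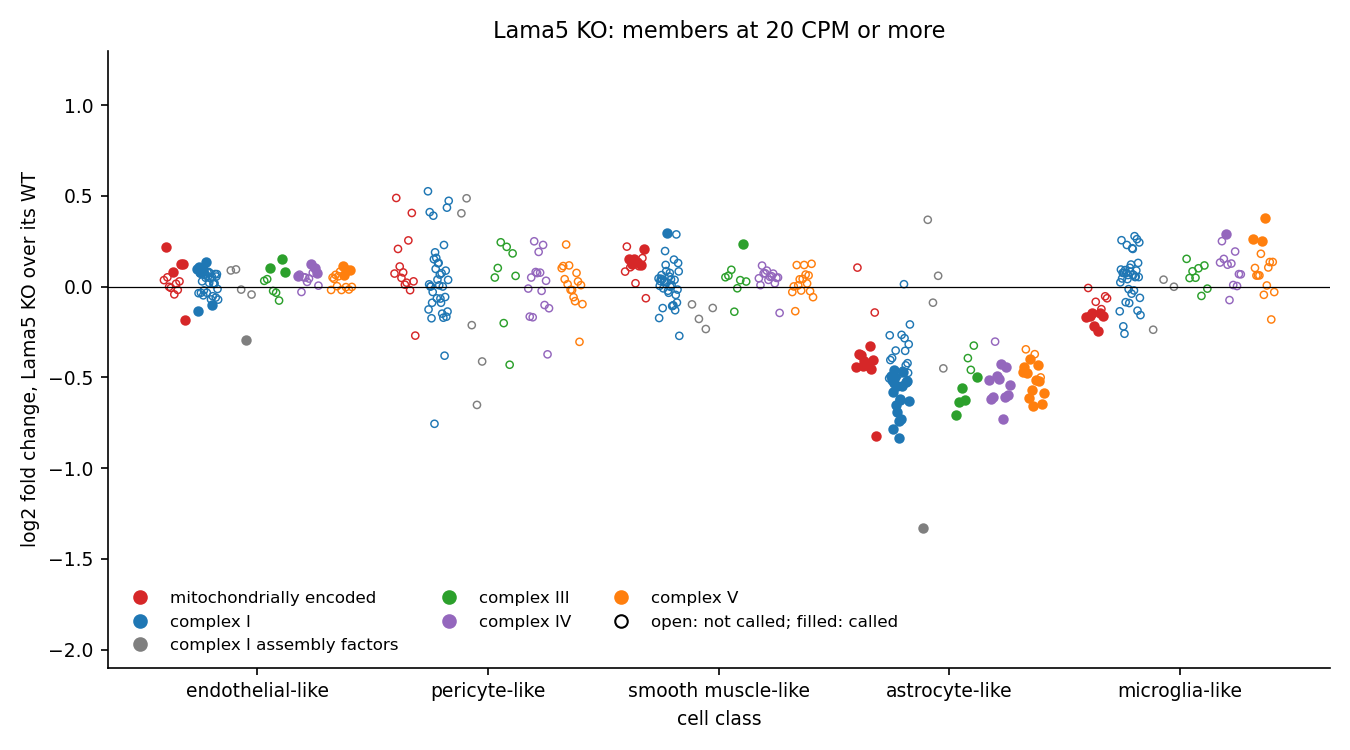
Log2 fold change (vertical axis) of each member at 20 CPM or more in the Lama5 KO against its WT, by cell class, coloured by complex, with filled points for members called by edgeR. In endothelial-like cells the called members lie between -0.30 and 0.22, in pericyte-like cells none is called, and in astrocyte-like cells all called members lie below 0.

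The direction of these endothelial changes rests on the scaling. With unscaled totals 27 members were called, 2 higher and 25 lower, and the median of all genes moved to -0.08, so a member's change there is to be read against that shift. Uqcrh and mt-Atp8 were still higher there (log2 0.08 and 0.14), mt-Cytb and mt-Nd5 lost their calls, and Cox8a and Cox4i1 turned to -0.00449 and -0.02. Gm42418 and AY036118, loci that take up ribosomal RNA reads, held 4.03% and 3.97% of endothelial-like UMIs in WT and 7.005% and 7.63% in the KO. With both loci and the mitochondrially encoded genes left out of the TMM scaling together, the same 24 members were called. Beyond that setting and the shares below, the part of the loci in the result was not tested. Median depth also differed, at 3292 and 3136 UMIs per cell in WT and 2806 and 2592 in the KO, and DESeq2 called 8 members. The count fell to 13 without WT replicate 1 and to 13 without WT replicate 2. The mix of endothelial clusters differed as well. The largest, with 1.44% nuclear chain UMIs, held 1971 and 2005 of the 4976 and 4973 WT cells. In the KO it held 1685 and 1743 of 4652 and 4743. Another, with 1.78%, held 1096 and 1099 WT cells and 1154 and 1208 KO cells. The part of this mix was not tested. Of other cells' markers, the 6 erythrocyte markers summed to 330 and 370 CPM in WT and 60.5 and 85.9 CPM in the KO, and the 10 microglia markers to 114 and 118, then 148 and 150 CPM. Their part in the result was not tested.

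As a share of all endothelial-like UMIs the chain differed little. Mitochondrially encoded transcripts made up 3.93% and 4.03% in WT and 3.76% and 3.91% in the Lama5 KO, a difference of -0.142 percentage points (pooled SD between libraries of a group 0.0895). Nuclear members made up 1.46% in each WT library and 1.43% and 1.42% in the KO, a difference of -0.0330 percentage points (pooled SD 0.0057). For both shares the KO libraries lay below both WT libraries. With Gm42418 and AY036118 taken out of the denominator, the differences became -0.00476 and 0.0189 percentage points.

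Pericyte-like cells of the Lama5 KO had no called member. edgeR called 0 of 92 members tested, where 0.663% of all 6337 genes were called (0.458% higher), and 12 members had an unadjusted p under 0.05; DESeq2 also called 0, with 1 at an unadjusted p under 0.05. The median log2 fold change of the members was 0.04. With 176 to 204 cells per library the class had the fewest cells of those tested in this experiment, and single members ranged from -0.76 to 0.53. The part of cell number in the lack of calls was not tested. Cox4i2 read 496 and 636 CPM in WT and 523 and 485 CPM in the KO, and those groups overlapped. Ndufa4l2 read 1570 and 1553 CPM in WT and 1394 and 1484 CPM in the KO, not overlapping but not called (log2 -0.12, SE 0.074).

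In smooth muscle-like cells of the Lama5 KO, 8 of 96 members were called by edgeR, all higher (5.98% of all 9530 genes were called, 4.59% higher and 1.4% lower), a share near the background. Of the 8, 6 were mitochondrially encoded and the other two were Uqcrh and Ndufb2, the same nuclear genes that rose in endothelial-like cells. Uqcrh read 788 and 799 CPM in WT and 938 and 931 CPM in the KO (log2 0.24, SE 0.046, edgeR adjusted p = 0.00106), and Ndufb2 read 149 and 154 CPM in WT and 189 and 183 CPM in the KO (log2 0.30, edgeR adjusted p = 0.0305). The WT and KO values were apart in each case. Uqcrh lost its call with unscaled totals or no filter on low counts, and Ndufb2 under 7 settings, among them DESeq2 (adjusted p = 0.235) and leaving out either WT library or KO replicate 1.

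The mitochondrially encoded rises in smooth muscle-like cells were of similar size across complexes. mt-Co1, the catalytic subunit of complex IV, read 8529 and 8597 CPM in WT and 9506 and 9537 CPM in the KO (log2 0.15, edgeR adjusted p = 0.00356). mt-Cytb read 6635 and 6652 CPM in WT and 7431 and 7325 CPM in the KO (log2 0.15, edgeR adjusted p = 0.00459). With unscaled totals both lost their calls (log2 0.05 each, edgeR adjusted p = 0.397 for mt-Co1 and 0.427 for mt-Cytb). mt-Cytb also lost its call with no filter on low counts (log2 0.13, edgeR adjusted p = 0.0527). mt-Nd5, mt-Nd2, mt-Co3 and mt-Nd4 rose by log2 0.21, 0.14, 0.13 and 0.12, and each lost its call in more settings. DESeq2 did not call mt-Nd5, mt-Nd2 or mt-Nd4 (adjusted p = 0.122, 0.0704 and 0.0808). Without KO replicate 2 none of the 4 was called, with mt-Nd5 at log2 0.13 (edgeR adjusted p = 0.264); mt-Nd2 and mt-Nd4 were not called without either WT library, mt-Nd5 without WT replicate 2 and mt-Co3 without WT replicate 1. The count was 5 without WT replicate 1, 4 without WT replicate 2 and 5 without KO replicate 2, and with unscaled totals it was 3, all lower, beside a shift of the median of all genes to -0.11. In this class Gm42418 and AY036118 held 3.07% and 3.03% of UMIs in WT and 5.58% and 5.84% in the KO. With these loci and the mitochondrially encoded genes left out of the TMM scaling together, the same 8 members were called. Beyond that setting their part was not tested.

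In microglia-like cells the called members of the 2 genomes moved in opposite directions. edgeR called 11 of 92 members in the Lama5 KO, 7 lower and 4 higher (14.4% of all 9590 genes were called, 5.46% lower and 8.93% higher), a share below the background. All 7 that fell are mitochondrially encoded and all 4 that rose are nuclear. mt-Nd1, a core subunit of complex I, read 1550 and 1553 CPM in WT and 1293 and 1332 CPM in the KO (log2 -0.24, SE 0.037, edgeR adjusted p = 5.54e-07). mt-Co3, a core subunit of complex IV, read 3848 and 4023 CPM in WT and 3305 and 3465 CPM in the KO (log2 -0.22, edgeR adjusted p = 2.40e-07). These 2 stayed called under every setting tried. mt-Atp6, mt-Co1, mt-Nd4, mt-Nd2 and mt-Co2 fell by 0.17, 0.16, 0.16, 0.15 and 0.14 on the log2 scale. These were less steady: mt-Co2 was not called by DESeq2 (adjusted p = 0.260) and stood at log2 -0.07 without KO replicate 1 (edgeR adjusted p = 0.356). mt-Co2 also lost its call without either WT library, mt-Nd2 without WT replicate 1 or KO replicate 1, and mt-Nd4 without WT replicate 2 or KO replicate 1. With cells of 2000 to 10000 UMIs mt-Atp6, mt-Co2, mt-Nd2 and mt-Nd4 were not called (log2 -0.09, -0.08, -0.07 and -0.11), and with doublets kept mt-Co1 and mt-Co2 were not (log2 -0.10 and -0.09).

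The nuclear rises in microglia-like cells were larger in log2 and rested on fewer UMIs. Atp5g3 read 85.2 and 71.4 CPM in WT and 103 and 102 CPM in the KO (log2 0.38, SE 0.11, edgeR adjusted p = 0.00795). Cox6a1, a complex IV subunit whose promoter is printed above, read 100.1 and 109 CPM in WT and 129 and 127 CPM in the KO (log2 0.29, edgeR adjusted p = 0.0217). Atp5a1, the alpha subunit of complex V, rose by log2 0.26 and Atp5g1 by 0.25. None of these 4 was called by DESeq2 or with unscaled totals, and the count of members was 6 without WT replicate 2 and 6 without KO replicate 1. With unscaled totals 10 were called, all lower, beside a shift of the median of all genes to -0.09.

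Several measures moved with the microglial result. Of 625 and 585 microglia-like cells in the WT libraries, 499 and 451 were of the largest microglial cluster of this experiment. In the KO libraries 902 and 845 of 1062 and 995 were. The mitochondrial share of that cluster was 1.90%. The cluster of few UMIs, with a share of 5.31%, held 119 and 123 WT cells and 156 and 144 KO cells. Without the cluster of few UMIs 12 members were called. The 8 choroid plexus markers summed to 0 and 0.478 CPM in WT and 107 to 123 CPM in the KO, the 6 erythrocyte markers to 474 to 538 and 80.9 to 85.8 CPM, with Alas2 at 0 in all 4 libraries. Their part in the result was not tested.

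Astrocyte-like cells had the largest count of called members, and it did not survive a change in which cells were summed. edgeR called 61 of 93 members lower in the Lama5 KO and 0 higher (19.8% of all 8992 genes were called, 8.45% lower), with a median log2 fold change of -0.48. Ndufb4, a complex I accessory subunit, read 201 and 211 CPM in WT and 99.7 and 131 CPM in the KO (log2 -0.84, SE 0.16, edgeR adjusted p = 0.00175). Ndufaf2, a complex I assembly factor, read 62.0 and 53.3 CPM in WT and 12.7 and 32.8 CPM in the KO (log2 -1.33, edgeR adjusted p = 0.00918). Ndufa3, Ndufb3, Cox7a2l and Ndufb7 fell by 0.78, 0.74, 0.73 and 0.73 on the log2 scale.

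The astrocyte-like class was made of cells of very different content. One astrocyte cluster held few UMIs per cell, 18.0% Malat1, a nuclear RNA, and 0.773% nuclear respiratory chain UMIs, with 162 and 188 WT cells and 197 and 194 KO cells. The main cluster held 2.42% nuclear chain UMIs, with 138 and 168 WT cells and 51 and 69 KO cells. Without the clusters of few UMIs, edgeR called 0 members, 8 had an unadjusted p under 0.05 and the median log2 fold change was 0.09. The count was also 0 with no limit on mitochondrial UMIs, with the members left out of the clustering genes, at a finer clustering and with doublets kept, 23 without KO replicate 1 and 40 without WT replicate 2. Microglia markers summed to 451 and 472 CPM in WT and 1753 and 2218 CPM in the KO in these cells (10 of 10 detected), and astrocyte markers to 17600 and 18379 CPM in WT and 12992 and 14066 CPM in the KO, and their part in the result was not tested.

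Of the 70 members called in any class of the Lama5 KO, 29 were called in more than 1, and 9 when astrocyte-like cells, whose calls depended on the cells summed, are not counted. These counts were not made over all genes tested, so the overlap is not read as particular to the members. Uqcrh and Ndufb2 were higher in endothelial-like and smooth muscle-like cells, and Atp5g3 in endothelial-like and microglia-like cells. mt-Cytb and mt-Nd5 were higher in endothelial-like and smooth muscle-like cells, and mt-Cytb was lower in astrocyte-like cells. mt-Co1, mt-Co3, mt-Nd2 and mt-Nd4 were higher in smooth muscle-like and lower in microglia-like and astrocyte-like cells. Most of the other shared calls, for example Uqcrb, Cox7a2l and Ndufa7, were higher in endothelial-like and lower in astrocyte-like cells. The difference between classes was not tested. The plot of the mitochondrially encoded genes shows endothelial-like and microglia-like cells side by side.

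**Figure D4:**
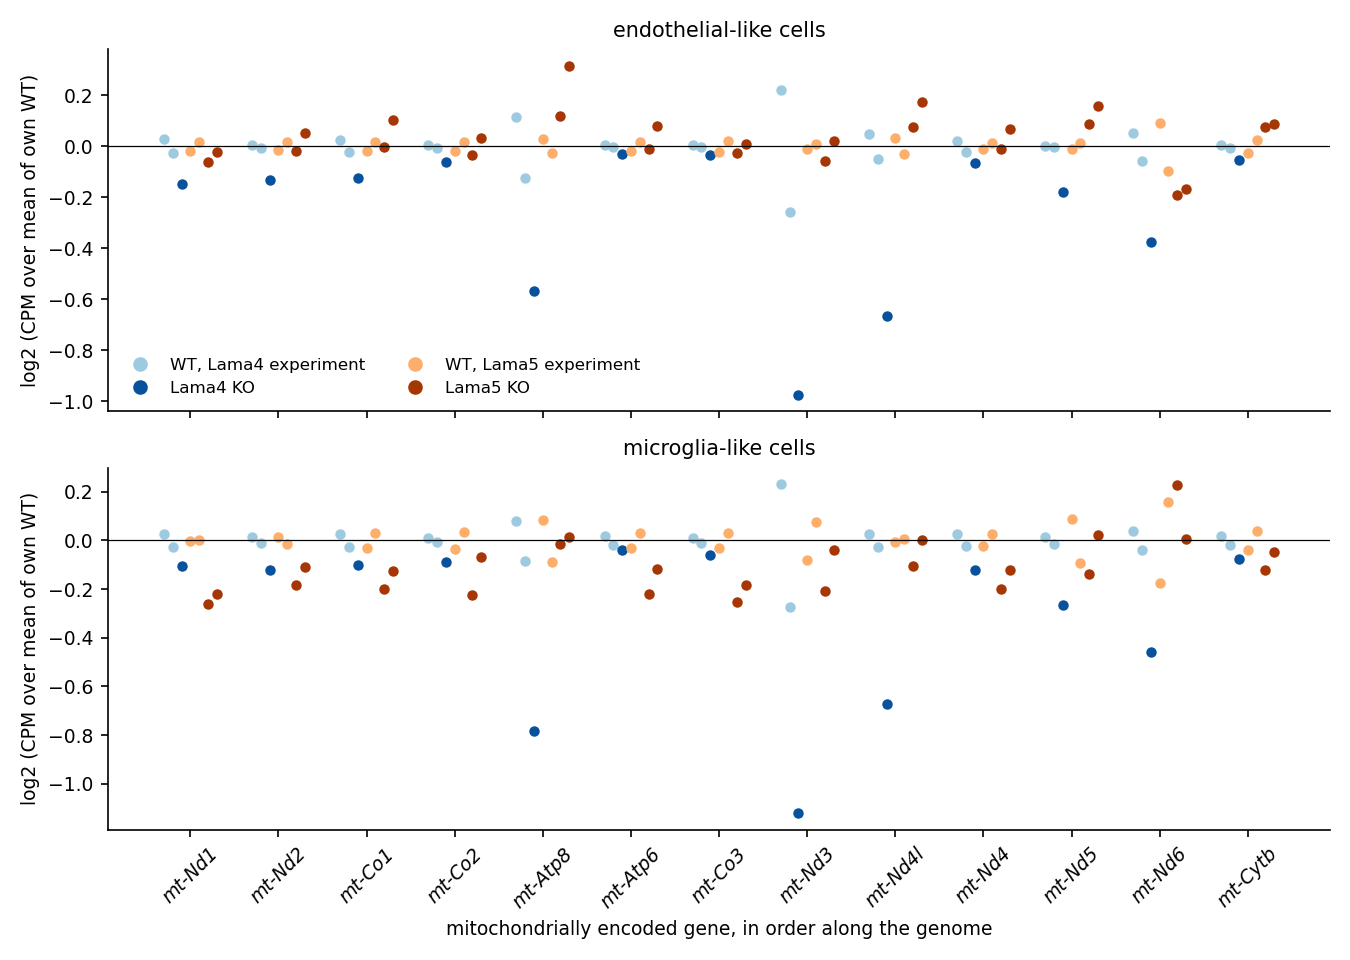
Log2 of CPM over the mean of the own WT (vertical axes) for the 13 mitochondrially encoded genes in endothelial-like and microglia-like cells, with 1 point per library, coloured by group. The Lama4 KO library lies lowest for mt-Nd3, mt-Nd4l and mt-Atp8 in both classes, and the Lama5 KO libraries lie below both of their WT libraries for mt-Nd1 and mt-Co3 in microglia-like cells.

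Genes outside the chain but tied to it were mostly not called in the same endothelial-like comparison, in which 19.1% of all genes were called and 8.46% were lower. Of complex II, 1 of 4 genes was called: Sdha, its flavoprotein, fell from 101 and 97.9 to 92.0 and 92.7 CPM (log2 -0.11, edgeR adjusted p = 0.0318). Of 35 assembly factors of complexes II to V, 2 were lower and none higher, with Coa7 at log2 -0.24. Of 13 genes for transcription and upkeep of mitochondrial DNA, Mterf2 alone was called (8.09 and 8.02, then 6.69 and 4.63 CPM, log2 -0.50, edgeR adjusted p = 0.0102), and of 13 tricarboxylic acid cycle genes Idh3b alone (log2 -0.15). None of 12 electron carrier genes was called.

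Glycolysis and hypoxia genes were called in both directions, on lists of 17 and 8 genes against 10.6% higher and 8.46% lower over all genes. In glycolysis 5 of 17 genes were higher and 3 lower; Hk2, a hexokinase, rose from 0.581 and 0.792 to 1.74 and 1.58 CPM (log2 1.28, edgeR adjusted p = 0.00426). In the hypoxia list 3 of 8 were higher and 3 lower, with Pdk1, a kinase that restrains pyruvate entry into mitochondria, up from 20.1 and 20.2 to 26.1 and 25.5 CPM (log2 0.36, edgeR adjusted p = 0.000252). Among regulators of mitochondrial content 2 of 6 were higher, with Pprc1 at log2 0.31. Yy1, the other one, named after its values were seen, was higher in endothelial-like (log2 0.15), smooth muscle-like (0.51), astrocyte-like (0.90) and microglia-like cells (0.17). Its astrocyte-like value comes from the class whose member calls depended on the cells summed. In smooth muscle-like cells Cycs, the cytochrome c gene, rose from 283.8 and 284.1 to 315 and 357 CPM (log2 0.24, edgeR adjusted p = 0.0312).

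In the Lama4 KO, which has 1 library and no test, a set of members, many of them with short transcripts, was lower in every class examined. A member counted as past the fold rule when its log2 ratio to the WT mean was at least 0.3 in size (pseudocount 0.5 CPM, mean of at least 20 CPM) and the KO lay outside both WT libraries. In endothelial-like cells 25 of 89 members passed it, all lower (4.92% of all 6405 genes passed, 3.86% lower and 1.06% higher). Of the 89, 72 lay below both WT libraries, as did 43.7% of all genes, and 9 lay above both, as did 36.7% of all genes. The median log2 ratio was -0.15 for the members and -0.01 for all genes. The 2 WT libraries differed in the same direction by a smaller amount, with a median of -0.06 for the members in the second against the first.

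Nuclear members of complexes I, III, IV and V all took part. Ndufa3 (chr7:3617373-3620327), an accessory subunit of complex I, read 144 and 112 CPM in the WT libraries and 79.1 CPM in the KO (exact Poisson 95% interval 74.9 to 83.5, counting error only), a log2 ratio of -0.69. Atp5k (chr5:108433244-108434448), a small complex V subunit, read 186 and 147 CPM in WT and 104 CPM in the KO (log2 -0.68), and Atp5e, the epsilon subunit, 465 and 401, then 280 CPM (log2 -0.63). Ndufa1 read 167 and 133, then 98.8 CPM (log2 -0.60), Uqcr11 295 and 256, then 186 CPM (log2 -0.57), and Cox6c 520 and 462, then 333 CPM (log2 -0.56). For each of these genes the second WT library lay between the first WT library and the KO.

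Of the mitochondrially encoded genes, 4 of 13 passed the rule and all 13 lay below both WT libraries. mt-Nd3, a small core subunit of complex I, read 568 and 408 CPM in WT and 249 CPM in the KO (log2 -0.97), so the WT libraries of 1 pool differed by log2 -0.48. mt-Nd4l read 207 and 193, then 126 CPM (log2 -0.66), mt-Atp8 132 and 112, then 82.4 CPM (log2 -0.57), and mt-Nd6 46.7 and 43.3, then 34.8 CPM (log2 -0.37). Some abundant genes barely differed: mt-Atp6 and mt-Co3 had log2 ratios of -0.03 and mt-Cytb of -0.05. The median over the 13 was -0.13.

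The same members recurred across classes. In microglia-like cells 31 of 89 members passed, all lower (8.78% of genes passed, 6.52% lower and 2.26% higher), led by mt-Nd3 (667 and 470, then 261 CPM, log2 -1.12), Ndufa3 (log2 -0.75) and Ndufa1 (log2 -0.74). In pericyte-like cells 25 of 92 were lower and 1 higher (30% of all genes passed, 17.2% lower and 12.8% higher). In smooth muscle-like cells 24 of 91 were lower (18.1% of all genes passed, 11.5% lower and 6.61% higher), and in astrocyte-like cells 22 of 90 (20.2% passed, 9.71% lower and 10.5% higher). Of the 89 members at 20 CPM or more in all 5 classes, 14 were lower in every class: Atp5e, Atp5k, Cox6c, Cox7c, Ndufa1, Ndufa2, Ndufa3, Ndufa7, Ndufb2, Ndufb4, Uqcr11, mt-Atp8, mt-Nd3 and mt-Nd4l. The classes come from the same 3 libraries, so they are not independent. The same count was not made over all genes, so this recurrence is not read as particular to the members. The 1 gene that was higher was Ndufa4 in pericyte-like cells, at 46.8 and 43.6 CPM in WT and 58.5 CPM in the KO (interval 42.5 to 78.5, counting error only, which covers both WT values). The choroid plexus markers in these cells summed to 244 to 322 CPM in WT and 2273 CPM in the KO, and Ndufa4 read 1861 CPM in choroid plexus-like cells of that library; their part was not tested.

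Transcripts under 500 bases were lower in the Lama4 KO among members and among other genes. Of endothelial-like genes with an annotated transcript under 500 bases, the 8 members had a median log2 ratio of -0.61, and the 31 other genes one of -0.43, with 30 of them below 0. From 500 to under 1000 bases the medians were -0.19 for 45 members and -0.02 for 380 other genes, and from 1000 to under 2000 bases -0.06 for 29 members and 0.01 for 1335 others. The second WT library against the first showed the same order at a smaller size, with -0.22 for the 8 short members and -0.17 for the 31 other short genes. In the Lama5 KO the short members and the short other genes stood at 0.04 and 0.06. As a description, Spearman's rho between length and log2 ratio over the 89 members was 0.51 in the Lama4 KO, 0.48 between its WT libraries and -0.15 in the Lama5 KO. Over the other genes rho was -0.05, 0.05 and -0.01, near 0 in each comparison. These are genes within the same libraries, not replicates. The part of transcript length in the Lama4 KO result was not tested.

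**Figure D5:**
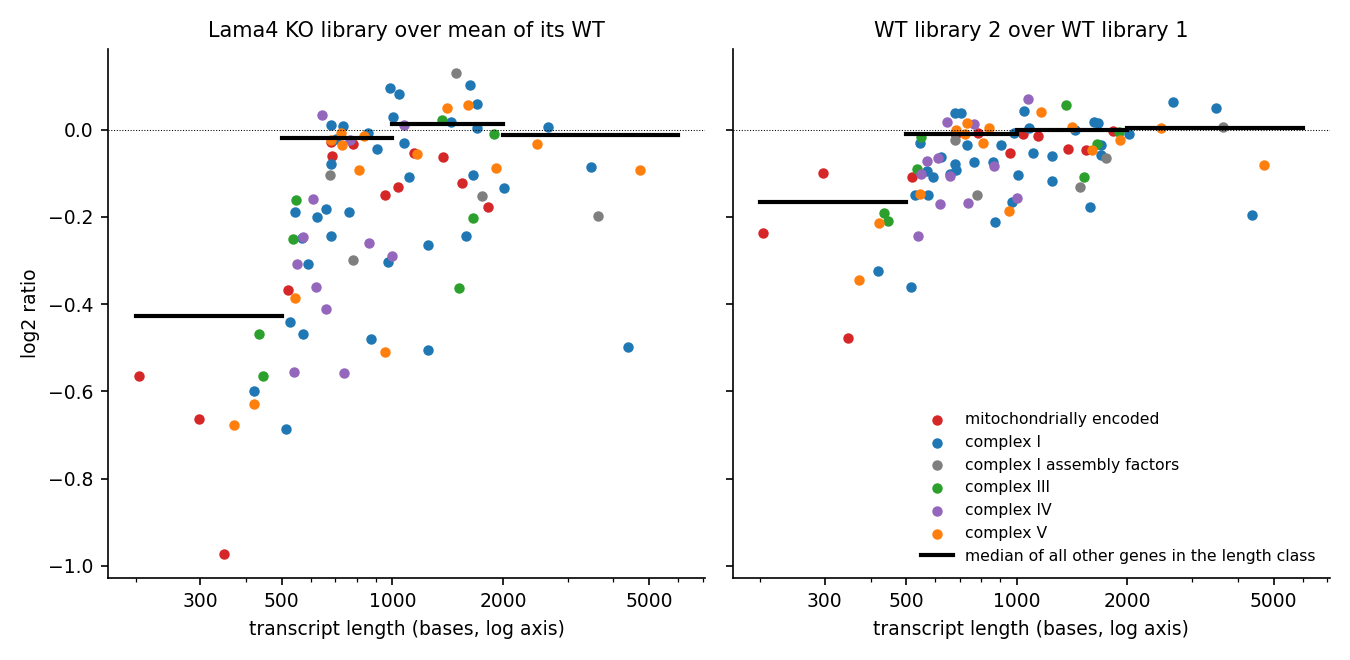
Log2 ratio in endothelial-like cells (vertical axis) against annotated transcript length (bases, log axis), for the Lama4 KO over its WT (left) and the second over the first WT library (right). Points are members, coloured by complex, and bars are medians of all other genes in a length class; members under 500 bases have medians of -0.61 and -0.22, and the bars there lie at -0.43 and -0.17.

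As shares of endothelial-like UMIs, nuclear members made up 1.74% and 1.66% in the WT libraries and 1.53% in the Lama4 KO, a difference of -0.168 percentage points (SD of the WT libraries 0.0535). Mitochondrially encoded members made up 4.68% and 4.64% in WT and 4.57% in the KO, a difference of -0.0919 percentage points (SD 0.0272). Both KO values lay below both WT values. In the other pathway lists of these cells, 3 of 22 assembly factors were lower, 1 of 14 glycolysis genes was higher, and none of 4 complex II genes or 13 tricarboxylic acid cycle genes passed the rule, beside 3.86% of all genes lower and 1.06% higher.

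The WT pools of the experiments differed in these genes about as often as in all genes, and mostly downward. In endothelial-like cells edgeR called 57 of 97 members when WT of the Lama5 experiment was set against WT of the Lama4 experiment, 9 higher and 48 lower (55.6% of all 13283 genes, 28.9% higher and 26.7% lower). With unscaled totals 82 were called, 4 higher and 78 lower, beside a shift of the median of all genes to -0.11. mt-Nd3 read 540 and 389 CPM in the WT libraries of the Lama4 experiment and 797 and 810 CPM in those of the Lama5 experiment (log2 0.79, edgeR adjusted p = 8.35e-07). mt-Nd4, a complex I core subunit, was lower there (2805 and 2728, then 2240 and 2282 CPM, log2 -0.29, edgeR adjusted p = 6.92e-08), as was Atp5k (log2 -0.54, edgeR adjusted p = 7.83e-06). The largest endothelial cluster held 1971 and 2005 cells of the WT libraries of the Lama5 experiment and 23 and 18 of those of the Lama4 experiment. Experiment, pool and library preparation cannot be told apart, so the levels of the KO groups are set only against their own WT.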

How the data were processed

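The authors deposited whole-number UMI counts per gene and cell as 10x matrices, made with Cell Ranger (version 3.1.0 per the file headers) on mm10, with Seurat 3.1 also named, per the submitters' processing notes; strand handling is not given in the sources used here. Libraries were made with a Chromium 3-prime version 3 kit, per the labels' protocols. Of 8 deposited samples, 7 were distinct. Cells with at least 500 genes and under 15% mitochondrial UMIs were kept, simulated-doublet scores removed 0.8% of cells per 1000 cells, and clusters came from 2000 variable genes, 30 principal components, 15 neighbours and resolution 1. A cluster took a class name from at least 3 markers of that class. Doublets were removed before clustering.

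Counts were summed per library and class (at least 50 cells per library). edgeR 4.0.16 (filterByExpr, TMM, quasi-likelihood test, Benjamini-Hochberg over all genes tested) compared the Lama5 KO libraries with their WT libraries and the WT pools with each other, and DESeq2 1.42.0 was an alternative. The Lama4 KO, with 1 library, was described by log2 ratios of TMM-scaled CPM and exact Poisson 95% intervals, which cover counting error only. Depth ran from 35479306 to 48314458 UMIs per library. Simulated counts with known changes, drawn from endothelial-like and microglia-like profiles with a fixed spread between libraries, were also run through the test. They held no difference between pools or in composition, so they do not bear on those. Classes with fewer cells were not tested. Oligodendrocyte-like, neuron-like and perivascular macrophage-like cells reached this limit in every library of the Lama5 experiment but were not tested either. Transcript lengths are those of GENCODE M21, which held 31011 of the 31053 identifiers.

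Named genes were all mitochondrially encoded members, the isoform pairs, up to 6 called nuclear members of at least 20 CPM in each direction per class (the 6 largest past the fold rule in the Lama4 KO), the called gene with the largest change in each pathway list, and Lama4 and Lama5. Members and lists were chosen with earlier results of these data known. Alternatives covered scaling, filters, the mitochondrial limit, clustering, doublets, depth, the replicate block and leaving out each library. Python 3.11.15, igraph 0.11.9 and R 4.3.3 were used.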

Additional observations from a re-analysis of the deposited data

Results flagged for a closer look

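In 11 cases a gene of a class moved in opposite directions in the knockouts: every Lama5 KO library lay above both of its WT libraries while the Lama4 KO library lay below both of its own. The list was restricted to members called by edgeR in the Lama5 KO and past the fold rule in the Lama4 KO. The same count was not made over all genes, so it is not read as particular to the members. The difference between the knockouts was not tested, and the Lama4 KO has 1 library. As given above, the direction of the endothelial-like changes in the Lama5 KO rests on the scaling. The WT libraries of the Lama4 experiment also differed from each other in the median of the members. In endothelial-like cells the log2 fold change in the Lama5 KO and the log2 ratio in the Lama4 KO were 0.22 and -0.57 for mt-Atp8, 0.12 and -0.66 for mt-Nd4l, 0.14 and -0.50 for Ndufb2, 0.10 and -0.60 for Ndufa1, and 0.10 and -0.44 for Ndufa7. They were 0.10 and -0.55 for Cox7c, 0.073 and -0.31 for Cox8a, 0.079 and -0.36 for Uqcrq, 0.092 and -0.51 for Atp5j2, and 0.094 and -0.39 for Atp5l. In smooth muscle-like cells they were 0.30 and -0.37 for Ndufb2.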

How the results depend on the processing

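With 1 library left out at a time each fit has fewer samples, and the lone library is assumed to vary like the other groups. The ranges were 13 to 18 in endothelial-like, 0 to 1 in pericyte-like, 4 to 10 in smooth muscle-like, 23 to 60 in astrocyte-like and 6 to 10 in microglia-like cells of the Lama5 KO, and 44 to 64 between the WT pools. In the Lama4 KO they were 21 to 30 in endothelial-like and 27 to 32 in microglia-like cells. The share differences of endothelial-like cells ran from -0.218 to -0.0666 (mitochondrial) and -0.0380 to -0.0279 percentage points (nuclear) in the Lama5 KO, and from -0.111 to -0.0727 and -0.206 to -0.130 in the Lama4 KO.

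DESeq2 called 8 members (7 higher) in endothelial-like, 4 in smooth muscle-like, 23 in astrocyte-like and 6 (all lower) in microglia-like cells. Cells of 2000 to 10000 UMIs gave 11 in endothelial-like and 20 in astrocyte-like cells, a mitochondrial share difference of -0.0285 in the Lama4 KO and a nuclear one of -0.0668 in the Lama5 KO. Unscaled totals gave 3 in smooth muscle-like cells, all lower, and no filter on low counts gave 1 there. Pericyte-like cells had 1 with mitochondrially encoded genes, Gm42418 and AY036118 left out of the scaling together and 1 with a 10% mitochondrial limit. Astrocyte-like cells had 0 with no mitochondrial limit, members left out of the variable genes, resolution 2, doublets kept, or the clusters of few UMIs removed, the last setting added after the data were seen. Without Gm42418 and AY036118 in the denominator the Lama5 KO differences were -0.00476 and 0.0189. The direction of single genes was compared only for those called, or past the fold rule, in the main setting. The 2 of these that reversed were Cox4i1 (-0.021) and Cox8a (-0.00449) in endothelial-like cells with unscaled totals. Of these changes the cause was not tested. Another 121 values of counts and shares stayed near the main setting. For counts this compares the number called and not its direction. Among them were endothelial-like and microglia-like cells with unscaled totals, although the split of calls into higher and lower changed there. A further 1075 values of single genes kept their call or lack of one, while 170 lost and 13 gained a call.

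Replicate numbers do not pair the samples: in the Lama5 experiment the correlation of same-numbered deviations was -0.0454 in endothelial-like and 0.0349 in microglia-like cells. With the replicate block the counts were 24 in endothelial-like, 1 in pericyte-like, 9 in smooth muscle-like, 66 in astrocyte-like and 12 in microglia-like cells and 57 between the WT pools. Pericyte-like cells had 176 to 204 cells per library in the Lama5 experiment, and astrocyte-like cells 1186 to 2126 median UMIs per cell, which limits the precision of both.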
